A study of Mus musculus with 9 samples.

Results

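Interferon-stimulated genes are the transcripts that a cell switches on when interferon binds its receptors, and 42 of them, named by symbol, were followed in sorted thymic tuft cells after irradiation. Of the 42 symbols, 41 matched a row among the 13223 genes of the count table, and 36 of these had enough reads to be tested. Xaf1 was not analysed here. Tuft cells, a scarce chemosensory type of epithelium found in the thymic medulla, were sorted from thymi of young female wild-type (WT) mice, either untreated (5 libraries) or 3 days after a sublethal dose of 425 rad (4 libraries), and profiled by bulk MARS-seq, which sequences the 3′ ends of polyadenylated RNA. Both groups shared genotype, sex and enzymatic dissociation with Liberase TH and DNase, and the controls were matched for age. The sources used here give neither the sort gate nor the number of cells per library. Nothing in the labels says that each library came from a separate mouse, and the p-values therefore rest on library-to-library spread that may be technical. In such bulk samples fewer cells of a type and less RNA per cell cannot be told apart.

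Type I interferons, such as interferon beta, signal through the receptor chains Ifnar1 and Ifnar2 and the kinases Jak1 and Tyk2 to a complex that contains Stat2 and Irf9. That complex binds the interferon-stimulated response element, and the Ifit, Oas and Mx families of antiviral genes are its classical targets. Interferon gamma signals through Ifngr1 and Ifngr2 to factors that bind the gamma-activated site and induce Irf1 and the guanylate-binding proteins (Gbp) and immunity-related GTPases (Irgm1, Igtp). Many genes answer to both. The thymic medulla is known for interferon signalling in the absence of infection, and nucleic acid released by radiation damage is a known trigger of interferon in other tissues. The comparison asked whether these genes stood higher or lower in tuft cells 3 days after irradiation, and whether the type I-dominated members (Ifit, Oas, Mx) differed from the gamma-dominated ones (Gbp, Irgm1, Igtp).

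Promoters of 6 members are printed here to show where the letters of both elements do and do not occur. RefSeq promoters of the build GRCm38.p6 were matched for 32 of the 42 members, and the 250 bases before the transcription start were searched on both strands. The response element was searched as GAAANNGAAA or TTTCNNTTTC, and the gamma-activated site as TTCNNNGAA, which reads the same on both strands. Capitals mark the bases that match, and matches that overlap run together. Oas3 and Ifit3 (type I-dominated), Gbp7 (gamma-dominated) and Isg15 (counted in neither family) hold the response element. Irf1 holds the gamma-activated letters without the response element. Epsti1, which had the lowest fold change of the 36 tested members, holds neither in this window.
Oas3, chr5:120777660-120777909, minus strand: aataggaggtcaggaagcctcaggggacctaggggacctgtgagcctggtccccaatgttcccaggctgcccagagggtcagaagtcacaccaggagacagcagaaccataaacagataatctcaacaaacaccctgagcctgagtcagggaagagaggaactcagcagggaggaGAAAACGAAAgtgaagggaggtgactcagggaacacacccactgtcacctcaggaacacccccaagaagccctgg
Ifit3, chr19:34583279-34583528, plus strand: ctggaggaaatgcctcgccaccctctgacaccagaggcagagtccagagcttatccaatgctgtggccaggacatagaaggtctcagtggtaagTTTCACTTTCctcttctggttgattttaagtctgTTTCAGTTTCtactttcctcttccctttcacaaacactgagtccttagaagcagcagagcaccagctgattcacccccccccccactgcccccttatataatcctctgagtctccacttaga
Isg15, chr4:156200819-156201068, minus strand: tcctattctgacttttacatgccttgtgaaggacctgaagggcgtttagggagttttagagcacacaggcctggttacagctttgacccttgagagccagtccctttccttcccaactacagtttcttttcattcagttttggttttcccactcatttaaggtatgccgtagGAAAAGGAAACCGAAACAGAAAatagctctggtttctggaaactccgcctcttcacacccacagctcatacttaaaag
Gbp7, chr3:142530086-142530335, plus strand: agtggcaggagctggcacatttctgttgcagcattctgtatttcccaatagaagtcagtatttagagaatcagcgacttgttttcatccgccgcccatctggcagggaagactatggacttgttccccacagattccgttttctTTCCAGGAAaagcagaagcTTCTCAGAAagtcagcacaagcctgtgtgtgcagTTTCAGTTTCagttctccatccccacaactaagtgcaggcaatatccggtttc
Irf1, chr11:53769764-53770013, plus strand: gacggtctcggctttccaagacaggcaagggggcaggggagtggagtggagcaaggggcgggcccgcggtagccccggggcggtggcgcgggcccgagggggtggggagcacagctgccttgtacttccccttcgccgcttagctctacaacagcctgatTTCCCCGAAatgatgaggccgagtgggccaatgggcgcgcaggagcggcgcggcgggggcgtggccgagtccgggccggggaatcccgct
Epsti1, chr14:77903989-77904238, plus strand: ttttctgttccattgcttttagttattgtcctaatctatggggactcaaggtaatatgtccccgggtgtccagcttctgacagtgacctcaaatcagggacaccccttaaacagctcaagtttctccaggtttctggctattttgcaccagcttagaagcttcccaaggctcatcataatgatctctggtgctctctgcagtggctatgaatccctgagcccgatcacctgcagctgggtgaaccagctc

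The response-element letters stood in 16 of the 32 matched members, or 50%, against 3.46% of the 27025 genes with a promoter entry. They were present in 6 of 9 matched type I-dominated members and in all 5 matched gamma-dominated members. The gamma-activated letters stood in 8 of the 32 (25%, against 8.13% of all genes), among them 2 of the 9 type I-dominated and 2 of the 5 gamma-dominated members. Both kinds of letters occurred in both families, and a match is a description of sequence, not a bound site.

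The libraries held 509157 to 978442 counts and 11747 to 12917 detected genes, so 1 count was worth 1.04 to 2.10 CPM (counts scaled to a common library size, 1 CPM being 1 read in 1e+06, adjusted by TMM as all levels below). All 15 tuft cell markers were tested and 0 were called, with summed levels of 8220 to 18200 CPM in untreated and 14100 to 18900 CPM in irradiated libraries. Some libraries stood apart before any interferon gene was considered. Untreated replicate 1 held 1610 CPM of 13 thymocyte markers, against 141 to 320 CPM in the other untreated libraries. Untreated replicate 2 held the least tuft cell signal and 2260 CPM of 11 medullary epithelial markers, against 526 to 991 CPM. The medullary markers summed to 790 to 1040 CPM in the irradiated libraries. Of 8 tested, 1 was called higher and 0 lower, with log2 fold changes from -1.82 for Aire to 1.11 for Cldn4, the called one (edgeR adjusted p = 0.0318). The thymocyte markers summed to 75.7 to 133 CPM in the irradiated libraries, below every untreated library, with 0 of 4 tested markers called; Lck, Lat and Dntt were lower without overlap (edgeR adjusted p = 0.159, 0.174 and 0.192). Of 6 tested mesothelium markers 5 rose, with summed levels of 363 to 781 CPM in untreated and 919 to 1810 CPM in irradiated libraries. The 12 fibroblast and pericyte markers summed to 677 to 2770 CPM and 2740 to 4390 CPM, with overlap and 0 called. They went both ways, with log2 fold changes of 1.91 for Col3a1, -1.10 for Rgs5 and -1.11 for Thy1. The part of cells with these markers in the levels of the interferon-stimulated genes was not tested. Irradiated replicate 4 was the smallest library. Among the 36 tested interferon-stimulated genes it was the lowest irradiated library for 21 (58.3%, against 38.0% of all tested genes), and untreated replicate 1 was the lowest untreated library for 15 (41.7%, against 21.1%). Untreated replicate 2 was the highest untreated library for 13 (36.1%, against 23.9%).

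Most interferon-stimulated genes stood lower in irradiated than in untreated tuft cells, and few of these differences passed the test. Epsti1 and Gbp4 fell, 0 rose and 34 did not pass (edgeR quasi-likelihood test, adjusted over 8934 genes). Over all tested genes 1.34% were called, 0.123% lower and 1.22% higher. DESeq2 called 3 members lower and 1 higher, against 0.775% and 1.43% of its genes. In a fit without a low-count filter, which takes in all 41 members with a row, 32 of 41 (78.0%) had a log2 fold change of irradiated over untreated below 0, against 55.7% of the 13223 genes, with medians of -0.40 and -0.06. In the filtered table the count was 29 of 36 (80.6%, against 52.5%), with medians of -0.43 and -0.02. An unadjusted p under 0.05 was reached downward by 16 of the 36, against 4.52% of tested genes, and upward by 1, against 6.07%. The groups did not overlap for 8 members that were lower after irradiation, against 2.08% of tested genes, and for 1 that was higher, against 3.06%. The members were read in the same libraries and share regulators, so these counts are not independent of each other. The share below 0 ran from 74.3% without untreated replicate 2 to 86.1% by limma-voom over all alternatives run.

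**Figure D1:**
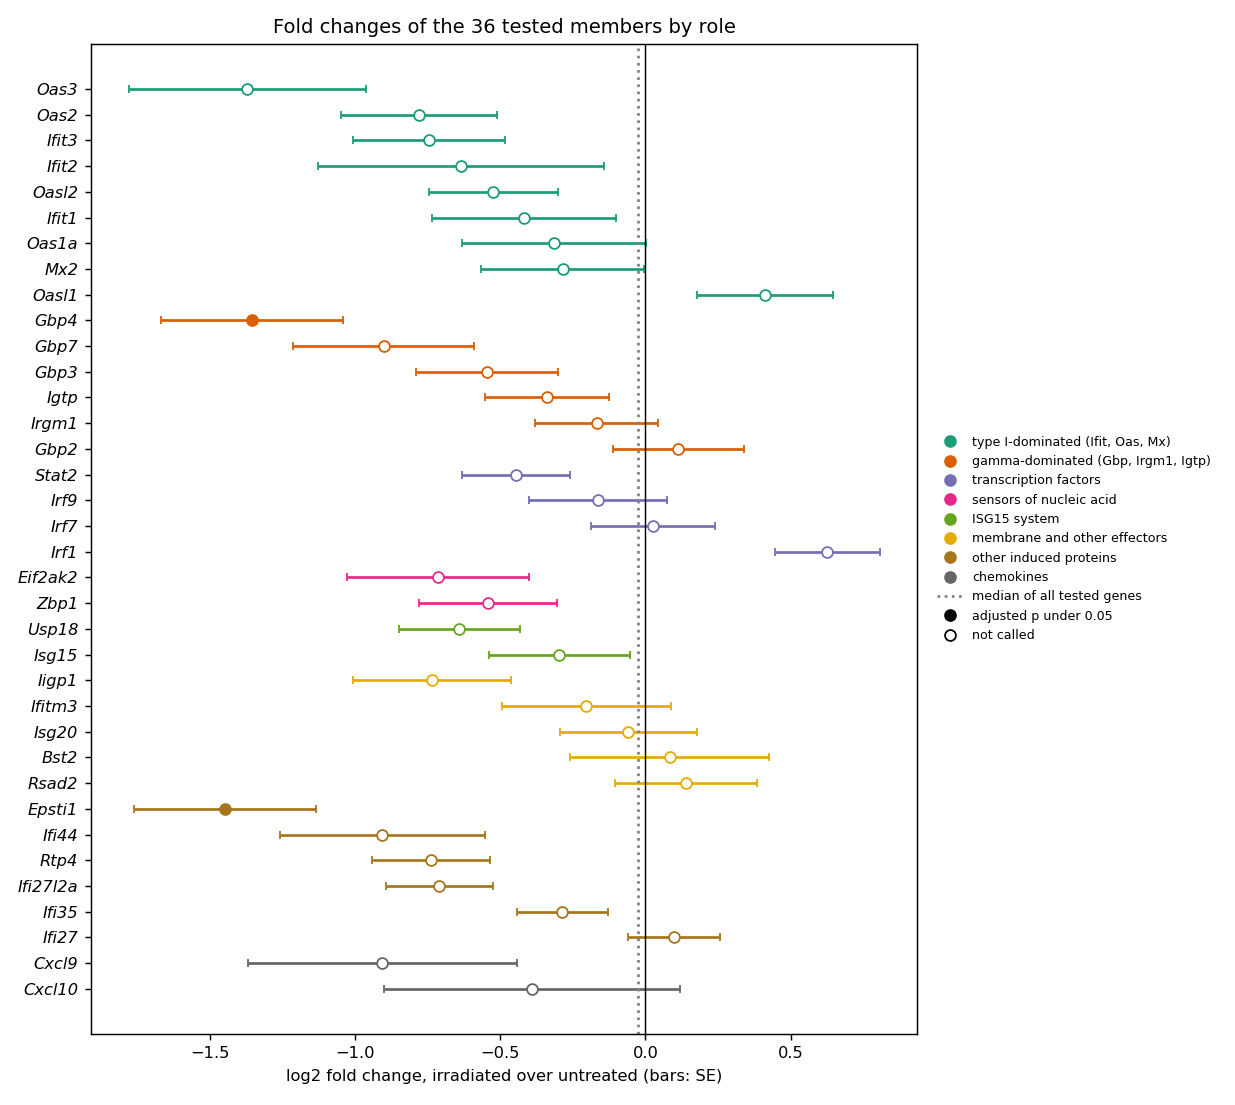
Log2 fold change of irradiated over untreated (x axis, point, with its SE as a bar) for each of the 36 tested members, grouped and coloured by role; filled points have an edgeR adjusted p under 0.05, and the dotted line is the median of all tested genes (-0.02). Most points lie left of 0, Epsti1 and Gbp4 are filled, and Irf1 at 0.63 lies farthest to the right.

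The 12 type I-dominated members encode proteins that bind foreign RNA (Ifit), make the second messenger that activates RNase L or resemble the enzymes that do (Oas, Oasl), or trap viral capsids (Mx). Of these, 9 were tested, 0 were called and 8 had a fold change below 0. Oas3, a synthetase for long double-stranded RNA, had the smallest edgeR p of the family. It stood at 13.6, 23.7, 16.0, 18.4 and 36.2 CPM in untreated replicates 1 to 5 and at 6.24, 10.4, 10.1 and 4.21 CPM in irradiated replicates 1 to 4. The groups did not overlap, and the log2 fold change was -1.37 ± 0.41 (SE, edgeR adjusted p = 0.167). Oas2 was at 64.4 ± 18.2 CPM (SD, n = 5) and 37.3 ± 8.64 CPM (SD, n = 4), a log2 fold change of -0.78 ± 0.27 (edgeR adjusted p = 0.246).

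Oasl2, which has the highest mean CPM of the family, stood at 116, 216, 164, 196 and 202 CPM in untreated and at 114, 168, 119 and 92.6 CPM in irradiated libraries. Untreated replicate 1 was as low as the irradiated libraries, and the log2 fold change was -0.52 ± 0.22 (edgeR adjusted p = 0.392). Its relative Oasl1 was the only tested member of the family with a fold change above 0. It was at 72.2, 47.4, 45.6, 44.7 and 48.8 CPM in untreated and 93.6, 68.4, 64.9 and 48.4 CPM in irradiated libraries, with overlap (0.41 ± 0.23, edgeR adjusted p = 0.590), and it overlaps exons of an opposite-strand gene.

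Among the Ifit genes, Ifit3 stood at 36.6, 56.3, 46.9, 53.9 and 40.4 CPM in untreated libraries and at 26.5, 27.0, 20.2 and 40.0 CPM in irradiated ones. Irradiated replicate 4 alone reached the untreated range (log2 fold change -0.74 ± 0.26, edgeR adjusted p = 0.262). Ifit1 was at 130 ± 30.3 and 96.0 ± 46.6 CPM, with irradiated replicate 4 at 31.6 CPM, and Ifit2 at 24.9 ± 16.1 and 16.1 ± 9.65 CPM. Oas1a (25.1 ± 8.30 and 19.9 ± 4.00 CPM) and Mx2 (28.7 ± 6.51 and 23.6 ± 5.31 CPM) had overlapping groups. In the reference annotation Mx2 is a polymorphic pseudogene.

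The 3 untested members of the family were read at low depth. Ifit3b, a close copy of Ifit3, held 13.6, 31.1, 11.1, 10.5 and 13.9 CPM in untreated and 7.80, 9.33, 2.24 and 0 CPM in irradiated libraries, so its groups did not overlap. Oas1g lay between 3.12 and 16.8 CPM and Mx1 between 4.68 and 25.1 CPM, with overlapping groups. Reads of near copies could have been divided by the authors' counting: of the 50-base stretches in the last 500 bases of the annotated coding transcripts, 56.1% of those of Oas1a also occur in Oas1g and 14.9% of those of Ifit3 in Ifit3b.

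The 6 gamma-dominated members are GTPases that attack the vacuoles of intracellular microbes or restrain the GTPases that do. All 6 were tested, 5 had a fold change below 0 and 1, Gbp4, fell. Gbp4 stood at 45.0, 37.0, 56.7, 32.9 and 25.1 CPM in untreated replicates 1 to 5 and at 20.3, 16.6, 13.4 and 10.5 CPM in irradiated replicates 1 to 4. Every irradiated library lay below every untreated one, a 2.56-fold lower level (log2 fold change -1.35 ± 0.31, edgeR adjusted p = 0.0497). The call was made by DESeq2 (adjusted p = 0.0234) and without untreated replicate 5 (edgeR adjusted p = 0.0408), and was lost under each other alternative, with an adjusted p of up to 0.170. Its locus is chromosome 5, 105115767 to 105139586 on the minus strand, where its exons overlap those of Gbp8 and Gbp9. Of its 3′ stretches, 19.4% also occur in transcripts of neighbouring paralogs, which leaves its level uncertain.

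Gbp7, whose promoter above holds both kinds of letters, stood at 32.5, 38.5, 46.9, 40.8 and 18.1 CPM in untreated and at 20.3, 23.8, 15.7 and 14.7 CPM in irradiated libraries. Untreated replicate 5 fell among the irradiated values (log2 fold change -0.90 ± 0.31, edgeR adjusted p = 0.250). Exons of Gbp7 overlap those of Gm43802 on the same strand. Gbp3 stood at 85.6 ± 20.3 and 58.1 ± 16.1 CPM, a log2 fold change of -0.55 ± 0.24 (adjusted p = 0.433 by edgeR). Gbp2, at 80.0 ± 13.2 and 85.9 ± 26.2 CPM, was the gamma-dominated member with a fold change above 0 (0.11 ± 0.23), a sign that turned without irradiated replicate 2.

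Irgm1, a regulatory GTPase with the highest mean CPM of these 6, stood at 106, 133, 132, 159 and 130 CPM in untreated and at 130, 143, 123 and 69.4 CPM in irradiated libraries. Only irradiated replicate 4 lay outside the untreated range, and the log2 fold change was -0.17 ± 0.21 (edgeR adjusted p = 0.848). Igtp, another such regulator whose exons overlap those of Irgm2 on the same strand, was at 99.6 ± 16.2 and 78.1 ± 20.9 CPM (-0.34 ± 0.21, edgeR adjusted p = 0.641). The gamma-dominated family was therefore not uniform, with Gbp4 and Gbp7 at the low end and Gbp2 and Irgm1 near 0.

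**Figure D2:**
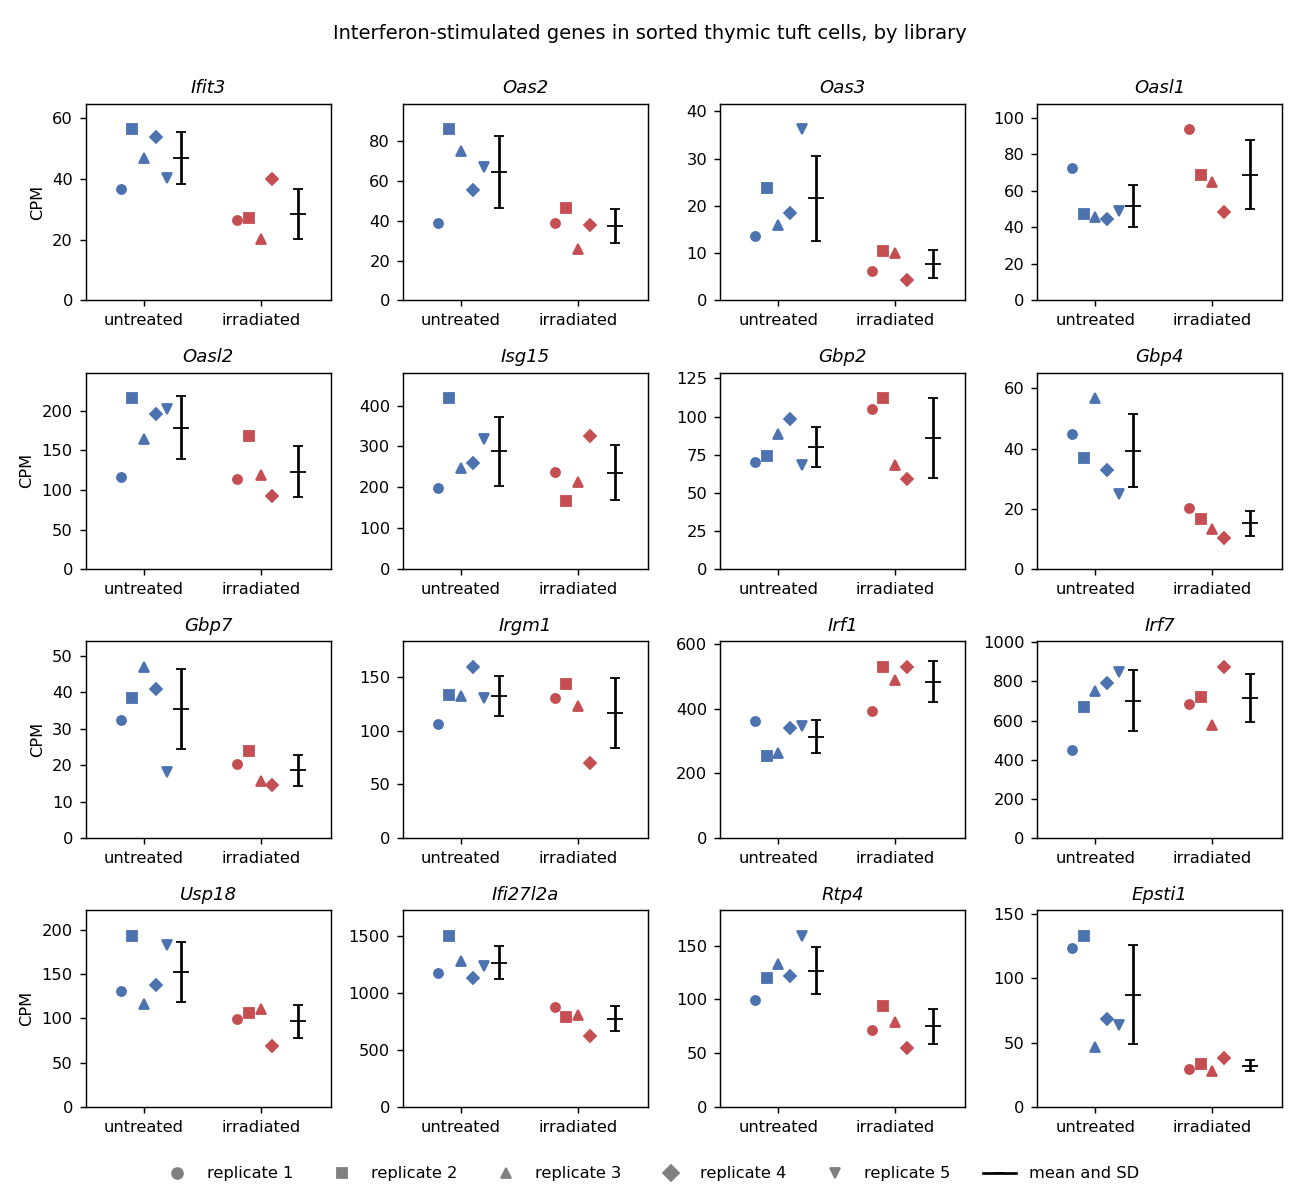
CPM (y axis, from 0) of 16 members in each library, untreated in blue and irradiated in red, with marker shapes for replicate numbers and the mean and SD in black; the 16 were chosen after their values were seen. Epsti1, Gbp4, Oas3, Usp18, Ifi27l2a and Rtp4 show no overlap, with the irradiated libraries lower, and Irf1 shows the opposite.

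The medians of the type I-dominated and gamma-dominated arms lay close together. The median log2 fold change was -0.52 for the 9 tested type I-dominated members (range -1.37 to 0.41) and -0.44 for the 6 gamma-dominated ones (range -1.35 to 0.11), against -0.02 over all tested genes. The difference of these medians, gamma-dominated minus type I-dominated, was 0.08, and it ran from -0.15 without untreated replicate 2 to 0.18 without untreated replicate 1. It turned sign (-0.02) when Iigp1, Cxcl9 and Irf1, which also respond strongly to interferon gamma, were counted as gamma-dominated. In mean log2 CPM the type I-dominated members stood at 5.35, 5.83, 5.73, 5.54 and 5.72 in untreated and 5.23, 5.38, 5.00 and 4.95 in irradiated libraries, with irradiated replicate 2 just above untreated replicate 1. The gamma-dominated members stood at 6.10, 6.06, 6.47, 6.34 and 5.89, and at 5.90, 6.0, 5.52 and 5.22, where irradiated replicates 1 and 2 reached the untreated range. The difference between the arms within a library lay between 0.18 and 0.79 in untreated and between 0.27 and 0.67 in irradiated libraries, so its range in the irradiated libraries lay inside that in the untreated ones. No test was made of these scores, since the members were chosen with results known.

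**Figure D3:**
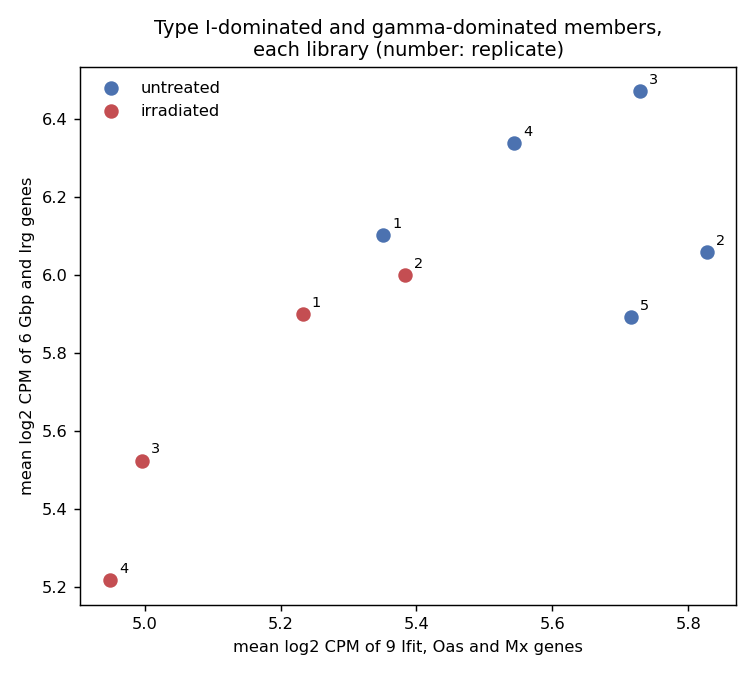
Mean log2 CPM of the 9 tested type I-dominated members (x axis) and of the 6 gamma-dominated members (y axis) in each library, with the replicate number beside each point. Irradiated replicates 3 and 4 lie lowest on both axes (5.00 and 4.95, 5.52 and 5.22), and irradiated replicates 1 and 2 lie at the edge of the untreated libraries.

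Of the 4 transcription factors among the members, 0 were called by edgeR, and 2 had a fold change above 0. Irf1, the primary factor of the interferon gamma response, stood at 363, 255, 264, 341 and 346 CPM in untreated and at 393, 529, 488 and 528 CPM in irradiated libraries. It was the only tested member with all irradiated libraries above all untreated ones (log2 fold change 0.63 ± 0.18, edgeR adjusted p = 0.146). DESeq2 called it higher (adjusted p = 0.0158), and no other alternative did, with the fold change between 0.52 and 0.72 over all of them. Irf1 overlaps exons of an opposite-strand gene, and the strand setting is not given in the sources used here.

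Irf7, which amplifies type I interferon, was at 702 ± 156 and 715 ± 121 CPM (0.03 ± 0.21), and Irf9, the DNA-binding subunit of the type I complex, at 166.5 ± 33.8 and 150.0 ± 57.1 CPM (-0.16 ± 0.24), with irradiated replicate 4 at 234 CPM and the rest of its group at 112 to 140 CPM. Stat2, its partner, was at 152 ± 27.9 and 111 ± 15.5 CPM (-0.45 ± 0.19, edgeR adjusted p = 0.385). Irf7 overlaps an opposite-strand gene and Irf9 shares exons with Rnf31.

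Of the 4 members that sense nucleic acid, the Z-DNA and Z-RNA sensor Zbp1 and the double-stranded RNA kinase Eif2ak2 were tested. Zbp1 stood at 92.1, 161, 96.2, 99.9 and 96.2 CPM in untreated and at 67.1, 93.3, 86.2 and 48.4 CPM in irradiated libraries. Apart from untreated replicate 2 the untreated libraries were close together, and irradiated replicate 2 reached them (log2 fold change -0.54 ± 0.24, edgeR adjusted p = 0.417). Eif2ak2 was at 91.3 ± 9.39 and 54.3 ± 28.1 CPM without overlap, with irradiated replicate 4 at 14.7 CPM (-0.71 ± 0.31, edgeR adjusted p = 0.418). The RNA helicases Ifih1 (0 to 11.5 CPM) and Ddx58 (3.12 to 17.6 CPM) were too low to test, and their groups overlapped.

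Isg15, a ubiquitin-like modifier, and Usp18, the protease that removes it and also damps the type I receptor, are the core of one system. Usp18 stood at 131, 193, 116, 138 and 183 CPM in untreated and at 99.9, 106, 111 and 69.4 CPM in irradiated libraries. All irradiated values lay below the untreated ones, but the difference did not pass (log2 fold change -0.64 ± 0.21, edgeR adjusted p = 0.210). Isg15 stood at 198, 418, 248, 259 and 318 CPM and at 237, 166, 213 and 326 CPM, with wide overlap (-0.30 ± 0.24, edgeR adjusted p = 0.749).

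Among effectors, the GTPase Iigp1 had the smallest edgeR p. It stood at 180, 197, 220, 270 and 159 CPM in untreated and at 172, 143, 121 and 52.6 CPM in irradiated libraries, so irradiated replicate 1 overlapped the untreated range (log2 fold change -0.73 ± 0.27, edgeR adjusted p = 0.305). The virion tether Bst2 stood at 417 ± 74.3 CPM in untreated libraries and at 351, 276, 251 and 901 CPM in irradiated ones. Irradiated replicate 4 lay far above the rest of its group, and the log2 fold change was 0.08 ± 0.34 with it and -0.51 without it. The sign also turned by limma-voom (-0.39), with a replicate block (-0.21) and without untreated replicate 5 (-0.013). The membrane protein Ifitm3 (913 ± 339 and 793 ± 296 CPM), the antiviral enzyme Rsad2 (107 ± 27.6 and 118 ± 36.8 CPM) and the exonuclease Isg20 (138 ± 34.1 and 133 ± 37.4 CPM) had log2 fold changes between -0.20 and 0.14. Of the 3′ stretches of Ifitm3, 14.0% also occur in other genes, among them Ifitm1 and Ifitm2.

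Epsti1, an interferon-induced gene also known from epithelial and stromal cells, had the smallest edgeR p of all tested members. It stood at 124, 133, 46.9, 68.4 and 64.1 CPM in untreated replicates 1 to 5 and at 29.6, 33.2, 28.0 and 37.9 CPM in irradiated replicates 1 to 4. The irradiated libraries were tightly grouped below all untreated ones, while untreated replicates 1 and 2 lay far above the other untreated libraries. It fell 2.73-fold (log2 fold change -1.45 ± 0.31, edgeR adjusted p = 0.0385). The call was lost by limma-voom (adjusted p = 0.0534) and in the fits without untreated replicates 1, 2 or 4 or without any irradiated library (edgeR adjusted p of up to 0.167). Without untreated replicates 1 and 2 together the log2 fold change was -0.90 (edgeR adjusted p = 0.176). Its locus is chromosome 14, 77904239 to 78002657 on the plus strand, and it shares no exon with another annotated gene.

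Among the untreated libraries, replicates 1 and 2 also had the highest sums of the macrophage, dendritic cell and plasmacytoid dendritic cell markers. Summed over 12 listed macrophage and monocyte markers (of 14), they held 2280 and 1310 CPM, against 230 to 800 CPM in the other untreated and 242 to 994 CPM in the irradiated libraries. Summed over 9 listed dendritic cell markers (of 12), they held 611 and 456 CPM, against 185 to 308 CPM and 159 to 532 CPM, where the 532 CPM of irradiated replicate 4 was mainly Fscn1. Of the 3 dendritic cell markers tested, Ccr7 and Ccl22 fell (edgeR adjusted p = 0.0110 and 0.0279). Fscn1 went the other way, with overlap (log2 fold change 0.53 ± 0.38, edgeR adjusted p = 0.70). Of 10 tested macrophage and monocyte markers and 2 tested plasmacytoid dendritic cell markers, 0 were called. Ccr7 stood at 25.1 to 126 CPM in untreated and 0 to 4.48 CPM in irradiated libraries, and Ccl22 at 9.21 to 156 and 0 to 2.10 CPM. Summed over 7 listed plasmacytoid dendritic cell markers (of 8), the untreated libraries held 59.9 to 1150 CPM and the irradiated 124 to 348 CPM. In untreated replicate 1 Klk1 gave 546 CPM and Ly6c2 328 CPM of that sum. Klk1 alone gave 975 of the 1050 CPM in untreated replicate 2. In irradiated replicates 1 to 4 it gave 93.6, 117, 333 and 116 CPM, most of the sum in each. The defining marker Siglech stood at 163 CPM in untreated replicate 1, at up to 11.1 CPM in the other untreated libraries and at 0 in all 4 irradiated libraries. The part of these cells in the levels of Epsti1, Gbp4 and the other members was not tested.

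**Figure D4:**
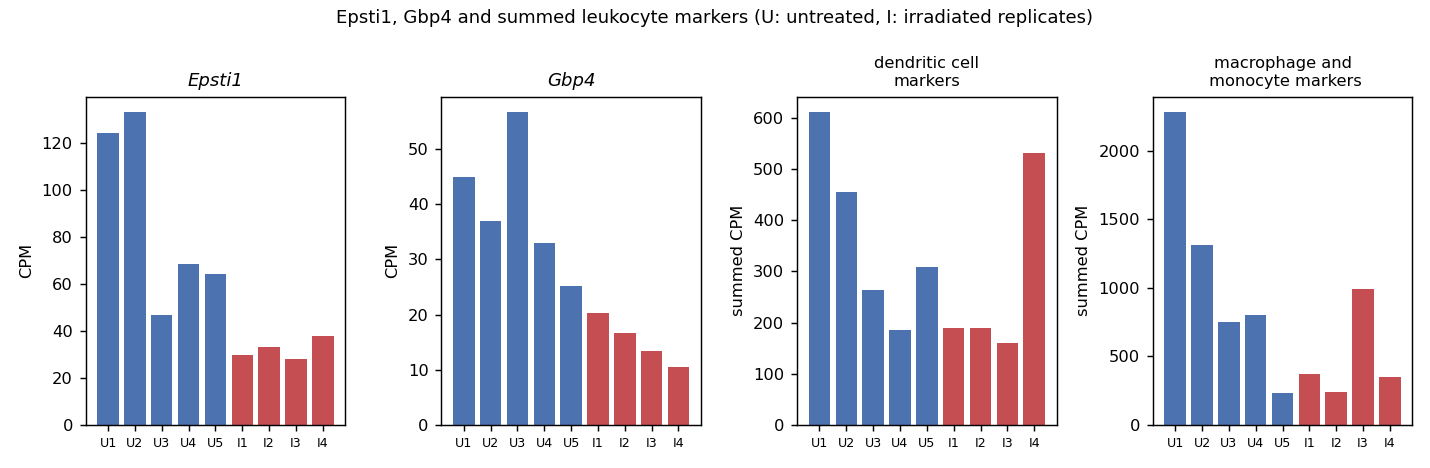
Bars give the CPM of Epsti1 and Gbp4 and the summed CPM of 9 dendritic cell and 12 macrophage and monocyte markers (y axes, from 0) in untreated replicates 1 to 5 (U, blue) and irradiated replicates 1 to 4 (I, red). Epsti1 and both marker sums are highest in U1 and U2 among the untreated libraries, and Gbp4 is highest in U3 at 56.7 CPM.

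Ifi27l2a, a small interferon-induced protein, combined a high level with a narrow spread, and its values were singled out after they were seen. It stood at 1180, 1500, 1280, 1130 and 1240 CPM in untreated and at 875, 793, 810 and 619 CPM in irradiated libraries, with a clear gap between the groups. The log2 fold change was -0.71 ± 0.19 (edgeR adjusted p = 0.0974), and it was called by DESeq2 (adjusted p = 0.000321) and limma-voom (adjusted p = 0.0247). Its neighbour on chromosome 12, Ifi27, was at 497 ± 34.9 and 532 ± 33.3 CPM (0.10 ± 0.16). The 2 genes thus differed in sign in the same libraries.

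Rtp4, a chaperone of G protein-coupled receptors, stood at 99.5, 120, 133, 122 and 159 CPM in untreated and at 71.8, 94.3, 79.5 and 54.7 CPM in irradiated libraries, also without overlap (log2 fold change -0.74 ± 0.20, edgeR adjusted p = 0.123). Exons of Rtp4 overlap those of Gm45338 on the same strand. Ifi35 was at 252 ± 29.5 and 207 ± 11 CPM without overlap, a small difference (-0.29 ± 0.16, edgeR adjusted p = 0.577). Ifi44 was at 53.5 ± 18.9 and 27.7 ± 12.3 CPM (-0.91 ± 0.35, edgeR adjusted p = 0.343).

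The chemokines Cxcl9 and Cxcl10, which attract activated T cells, varied widely among the untreated libraries. Cxcl9 stood at 10.5, 50.4, 21.0, 53.9 and 19.5 CPM in untreated and at 14.0, 19.7, 11.2 and 21.0 CPM in irradiated libraries, and Cxcl10 at 98.4, 576, 144, 530 and 222 CPM and at 303, 272, 174 and 208 CPM. Both were highest in untreated replicates 2 and 4, and the irradiated libraries lay inside the untreated range. Their log2 fold changes were -0.90 ± 0.46 and -0.39 ± 0.51 (edgeR adjusted p = 0.529 and 0.857). Cxcl10 overlaps exons of Art3 on the opposite strand.

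Of the other genes of the pathway, 85 of 101 with a row were tested, and 0 rose and 0 fell by edgeR. An unadjusted p under 0.05 was reached downward by 16 of the 85 and upward by 2, against 4.52% and 6.07% of all tested genes. DESeq2 and limma-voom (0.313% of all genes lower) each called 1 of them lower, the nuclear body gene Sp100. It was at 110 ± 8.24 and 63.8 ± 16.7 CPM without overlap (log2 fold change -0.79 ± 0.20, edgeR adjusted p = 0.0862, DESeq2 adjusted p = 0.0265, limma-voom adjusted p = 0.0174). Further induced genes, 43 tested, had a median of -0.46 with 35 below 0 (81.4%, against 52.5% of all tested genes). Trim34a had means of 36 ± 10.3 and 17.5 ± 4.75 CPM, untreated first (edgeR adjusted p = 0.186). The 16 interferon genes looked up were not analysed here.

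Receptors and their kinases lay closer to 0, with a median of -0.19 over 10 tested genes. Mean levels of the type I receptor chain Ifnar2 were 143 and 166 CPM, untreated first, and those of the gamma receptor chain Ifngr2 were 178 and 161 CPM. Stat3, a transducer of other cytokines, was at 133 ± 21.5 and 181 ± 51.7 CPM (0.43 ± 0.21, edgeR adjusted p = 0.494).

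Upstream sensing genes had a median of -0.25 over 14 tested. The helicase Dhx58 stood at 37.8 ± 7.92 and 20.2 ± 4.16 CPM without overlap (adjusted p = 0.174 by edgeR), and Samhd1, which degrades nucleotides, at 50.3 ± 17.1 and 30.3 ± 9.07 CPM (0.392). Among negative regulators, with a median of 0.01 over 9 tested, Trim30a stood at 25.1 ± 7.89 and 10.3 ± 4.16 CPM without overlap (adjusted p = 0.174 by edgeR), and the cytokine signalling suppressor Socs3 at 193 ± 61.4 and 463 ± 387 CPM (0.322), with 1040 CPM in irradiated replicate 4. Over a list of 9 other interferon regulatory factors and Irf2-binding proteins the median was -0.08. Irf2bpl, named for its relation to an Irf2-binding protein, was at 76.7 ± 13.7 and 125 ± 32.3 CPM (adjusted p = 0.167 by edgeR). Irf8, a factor of dendritic cells and macrophages, was at 209 CPM in untreated replicate 1, at 39.5 to 87.4 CPM in the other untreated libraries and at 22.4 to 39.0 CPM in the irradiated ones (log2 fold change -1.57 ± 0.53, edgeR adjusted p = 0.262).

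In the authors' deposited table, Epsti1 and Gbp4 were the 2 members flagged as passing, among 242 genes. Of the 13223 genes in the authors' deposited table, 289 had an adjusted p under 0.05. Among the 41 members with a row it was 4, 3 of them higher in untreated cells. Their adjusted p in the authors' deposited table was 0.00684 for Epsti1, 0.0236 for Gbp4, 0.0159 for Irf1 and 0.000328 for Ifi27l2a. Irf1 and Ifi27l2a were not flagged, although their adjusted p lay below that of Gbp4. The flag therefore did not follow the adjusted p alone. The authors' log2 fold changes, untreated over irradiated, were -0.65 for Irf1 and 0.69 for Ifi27l2a, against 1.43 for Epsti1 and 1.35 for Gbp4.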

How the data were processed

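Per the file headers, the deposited raw columns hold counts per gene for 13223 symbols, whole numbers reaching at least 6 in some library. The deposited normalized columns hold the signal as counts over 1 size factor per library, the deposited regularized columns hold log2 values, and the authors' comparison gives log2 fold changes (untreated relative to irradiated) with p-values. Tools listed in the submitters' processing notes, without their roles, are STAR 2.5.2b, HTSeq, cutadapt, bcl2fastq and DESeq2, with the build mm10. Whether molecular identifiers were collapsed is not given in the sources used here. No column belonged to other samples.

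The test was made with edgeR 4.0.16 (R 4.3.3): filterByExpr (minimum count 10), TMM, robust quasi-likelihood F tests over 8934 genes and Benjamini-Hochberg adjustment at 0.05, checked on simulated data. The SE is the fold change divided by the square root of F. List means used log2 CPM with a prior count of 2. DESeq2 1.42.0, limma 3.58.1 (voom with quality weights), other scalings and filters, a replicate block and each library left out were alternatives. Members and lists were chosen with earlier results of these data known. Values per library were given for called members, the smallest p of each role, the highest mean CPM of either family and some chosen after their values were seen; of other pathway genes, called ones and the 2 smallest p per list were named, except 1 that is not reported here. Positions are from GENCODE M21 (GRCm38, the same assembly as mm10), and promoters from RefSeq.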

Additional observations from a re-analysis of the deposited data

Results flagged for a closer look

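In 6 of 92 groups of libraries examined (6.52%), 1 library stood apart from the rest of its group by a test that chance alone meets in about 1 in 20. Ifit2 was at 53.0 CPM in untreated replicate 3, against 12.5 to 21.0 CPM in the other untreated libraries. Oasl1 was at 72.2 CPM in untreated replicate 1, against 44.7 to 48.8 CPM, and Zbp1 at 161 CPM in untreated replicate 2, against 92.1 to 99.9 CPM. Irf8 was at 209 CPM in untreated replicate 1, against 39.5 to 87.4 CPM. In irradiated replicate 4, Bst2 was at 901 CPM and Socs3 at 1040 CPM, against 251 to 351 CPM and 245 to 304 CPM in the other irradiated libraries.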

How the results depend on the processing

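Over all alternatives run, Epsti1 and Gbp4 kept the direction of their fold change. The number of members called lower was 2, and it was 1, Epsti1, without the low-count filter, with a filter of 10 CPM in 4 libraries, and when scaled by upper quartiles or by DESeq2 size factors. It was 1, Ifi27l2a, by limma-voom. Leaving out 1 library gave 0 to 2. Of the alternatives chosen after seeing the data, leaving out untreated replicates 1 and 2 gave 0 and leaving out untreated replicate 2 and irradiated replicate 4 gave 1. DESeq2 called 1 member higher, Irf1, and 1 further pathway gene lower, Sp100, as did limma-voom for Sp100. With the replicate number as a replicate block, 1 member was called lower, Epsti1. Same-numbered libraries deviated together with correlations of 0.067, -0.010, -0.123 and 0.141, not every library correlated best with its own number, and the numbers were not taken as pairs.

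Signs turned only among members that were not called. The log2 fold change of Irf7 was -0.0176 with upper-quartile scaling and -0.0875 by limma-voom, and ran from -0.10 to 0.13 with 1 library left out. Bst2 was at -0.39 by limma-voom and -0.21 with the replicate block, and ran from -0.51 to 0.29. The ranges with 1 library left out were -0.035 to 0.25 for Gbp2, -0.27 to 0.01 for Irgm1, -0.47 to 0.01 for Ifitm3, -0.0429 to 0.28 for Rsad2, -0.19 to 0.12 for Isg20 and -0.62 to -0.06 for Cxcl10. Without untreated replicates 1 and 2, Irf7 was at -0.16. Without untreated replicate 2 and irradiated replicate 4, Irf7 was at -0.10, Bst2 at -0.54, Irgm1 at 0.0087, Ifitm3 at 0.17 and Cxcl10 at 0.0102. The causes were not tested.

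A count of 1 was worth 1.04 to 2.10 CPM, so members under about 10 CPM rest on few reads. With 5 and 4 libraries, a p that misses the threshold does not show equal levels.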
